A study of Mus musculus with 6 samples.

Results

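The semaphorin-plexin and SLIT-ROBO guidance genes are a group of 10 genes, Sema3a, Sema3e, Sema3f, Sema6a, Plxnd1, Plxna2, Slit2, Robo1, Robo2 and Robo4. They were taken by symbol from the 55487 genes of the deposited table, and all 10 were found, each with 1 Ensembl identifier. RNA was measured in vascular endothelial cells (VECs) sorted from retinas at postnatal day (P) 7.5, to ask which transcripts depend on Bmal1, an activator of the circadian clock, in growing vessels. Per the paper, the retinas were taken at noon (ZT6), a single time of day. The control group held 3 libraries from tdTomato FL/+;Pdgf-icreER animals and the mutant group, Bmal1;CKO, held 3 with the genotype Bmal1 FL/FL;tdTomato FL/+;Pdgf-icreER. Both groups carried the tamoxifen-dependent Cre, the GFP that comes with it and the tdTomato reporter, both were given tamoxifen between P0.5 and P2.5, and the floxed Bmal1 alleles were present in the mutant group alone. Cells positive for GFP and tdTomato were collected, so the sort rests on the Pdgf-icreER transgene. Libraries are numbered as in the table, with control libraries 1 to 3 and Bmal1;CKO libraries 4 to 6.

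Semaphorins are secreted or membrane-bound guidance cues that act through plexins, large receptors whose cytoplasmic part restrains integrins and the actin cytoskeleton. Class 3 semaphorins mostly need a neuropilin as co-receptor, whereas Sema3e binds Plxnd1 directly. SLIT proteins are secreted cues read by ROBO receptors. In the growing retina, neurons and glia release several of these cues, endothelial cells carry Plxnd1 and Robo4, and the balance of the signals helps to set where vessels sprout and how evenly the plexus fills.

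Bmal1 protein binds DNA at the E-box, with the letters CACGTG, so the start regions of the guidance genes were read for it. RefSeq start regions on GRCm38.p6, each of 300 bases from 250 before to 50 after an annotated start, were present for 8 of the 10 genes, with 3 starts for Robo2 and 10 regions in all. Sema3f and Sema6a had no entry. An E-box was found in 2 of the 10 regions, 1 of Sema3e and 1 of Robo2, and 7.15% of all 32851 regions of this length held one. The D-box TTATGTAA, another clock motif, was in 0 of the 10 regions and in 0.938% of all regions. The half-site AGGTCA, part of the element bound by ROR and REV-ERB factors, was in the regions of Plxnd1 and Robo4 and in 16.3% of all regions, counted like the others on both strands. In Plxnd1 it lies on the opposite strand and reads TGACCT. The Sema3e E-box begins 23 bases after the start and that of Robo2 begins 18 bases before it. The regions that held a motif, and the Robo2 start that lies at the end of its GENCODE gene model, are shown 5′ to 3′ with motif letters in capitals, because Robo2 separated the groups, Sema3e and Plxnd1 are a ligand and its receptor, and Robo4 and Plxnd1 are the endothelial receptors of the group. A match in letters is a description and was not tested as a binding site.
Sema3e (GRCm38.p6, chr5:14025026-14025325, forward strand): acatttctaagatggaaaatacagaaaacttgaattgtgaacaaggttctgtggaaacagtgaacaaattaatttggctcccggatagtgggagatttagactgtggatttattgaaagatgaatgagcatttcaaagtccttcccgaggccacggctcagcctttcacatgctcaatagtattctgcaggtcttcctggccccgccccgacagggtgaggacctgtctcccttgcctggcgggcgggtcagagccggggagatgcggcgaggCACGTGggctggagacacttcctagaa
Robo2, start with the E-box (GRCm38.p6, chr16:75447244-75447543, reverse strand): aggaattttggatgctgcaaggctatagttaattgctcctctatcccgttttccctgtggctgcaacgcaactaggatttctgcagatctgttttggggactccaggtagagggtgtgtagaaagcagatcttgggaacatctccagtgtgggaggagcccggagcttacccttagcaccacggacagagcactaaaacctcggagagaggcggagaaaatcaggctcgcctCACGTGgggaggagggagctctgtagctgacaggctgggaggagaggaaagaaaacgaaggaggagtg
Robo2, start at the end of the gene model (GRCm38.p6, chr16:74411776-74412075, reverse strand): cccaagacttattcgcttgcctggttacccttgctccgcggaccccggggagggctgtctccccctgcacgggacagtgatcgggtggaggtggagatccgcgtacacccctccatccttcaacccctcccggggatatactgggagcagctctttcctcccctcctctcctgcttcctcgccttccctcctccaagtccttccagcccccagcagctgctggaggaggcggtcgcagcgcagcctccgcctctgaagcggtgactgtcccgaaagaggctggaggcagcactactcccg
Plxnd1 (GRCm38.p6, chr6:115994956-115995255, reverse strand): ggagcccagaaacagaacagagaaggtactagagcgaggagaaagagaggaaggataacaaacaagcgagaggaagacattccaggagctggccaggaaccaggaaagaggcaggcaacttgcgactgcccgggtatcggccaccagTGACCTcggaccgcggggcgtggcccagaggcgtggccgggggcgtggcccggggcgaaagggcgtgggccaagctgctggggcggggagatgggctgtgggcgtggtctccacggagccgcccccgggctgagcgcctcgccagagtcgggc
Robo4 (GRCm38.p6, chr9:37401722-37402021, forward strand): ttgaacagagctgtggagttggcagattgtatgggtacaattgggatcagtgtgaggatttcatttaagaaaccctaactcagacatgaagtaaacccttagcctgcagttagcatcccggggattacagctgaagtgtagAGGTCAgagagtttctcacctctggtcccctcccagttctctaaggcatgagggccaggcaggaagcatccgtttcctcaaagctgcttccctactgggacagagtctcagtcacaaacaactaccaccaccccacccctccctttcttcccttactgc
The Robo2 start with the E-box lies outside the GENCODE M21 model of Robo2, and which start the reads came from cannot be read from 1 value per gene.

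Between 71145068 and 104017800 reads per library were counted on genes. Bmal1 itself, listed as Arntl, had 1700.4, 3489 and 2928 normalized counts (read counts divided by a size factor per library) in control libraries 1 to 3 and 1779, 2747 and 2415 in Bmal1;CKO libraries 4 to 6, and the groups overlapped. Its value covers the whole gene, the floxed exon was not read separately here, and genotypes are those of the labels. By droplet digital PCR on sorted endothelial cells of these genotypes, the paper reports significantly fewer Bmal1 transcripts in the mutant. Each of the 14 endothelial markers passed 10 reads in all 6 libraries, and their summed level ran from 197511 to 392861 normalized counts in control and from 122858 to 255188 in Bmal1;CKO. Other retinal cells were in the libraries as well. The 9 microglial markers summed to 1386183 to 4103347 in control and 2013409.6 to 3985845 in Bmal1;CKO, the 10 rod markers to 701303 to 854310.0 and 542928 to 880419, and the 8 Müller glia markers to 37201 to 44528 and 42365 to 57808. Both control library 1 and control library 3 stood apart. Control library 1 alone had 0 reads for the ganglion cell markers Slc17a6 and Thy1, the amacrine markers Gad1 and Tfap2c and the horizontal cell marker Calb1, and Pou4f2 of ganglion cells was at 0 there and in Bmal1;CKO library 5. The 8 pericyte markers summed to 46064 normalized counts in control library 3 and to 2627 to 8274 in the other libraries. In this sorted bulk RNA, fewer cells of a type and less RNA per cell cannot be told apart.

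The level of each guidance gene was compared per kilobase (kb) of annotated exon. Robo4 was highest with a mean of 781 ± 397 normalized counts per kb (SD over 6 libraries), followed by Plxnd1 (503 ± 295), Sema3f (367 ± 196), Sema6a (203 ± 151) and Plxna2 (148 ± 83.0). The lower 5 were Robo2 (31.6 ± 9.04), Slit2 (20.6 ± 9.16), Robo1 (18.8 ± 9.52), Sema3e (4.02 ± 3.52) and Sema3a (2.91 ± 3.33). Robo4 stood above 74.2% of the 20437 tested genes with a gene model and Sema3a above 0.812%, and the median of those genes was 193 normalized counts per kb. Among neighbours in this order, only Plxna2 and Robo2 had ranges over the 6 libraries that did not overlap, with 79.6 as the lowest Plxna2 library and 43.0 as the highest Robo2 library. Robo4 was above Plxnd1 in 6 of 6 libraries although their ranges overlapped. The upper places per kb thus went to Robo4, both plexins, Sema3f and Sema6a, and the lowest to the ligands Sema3e and Sema3a.

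**Figure D1:**
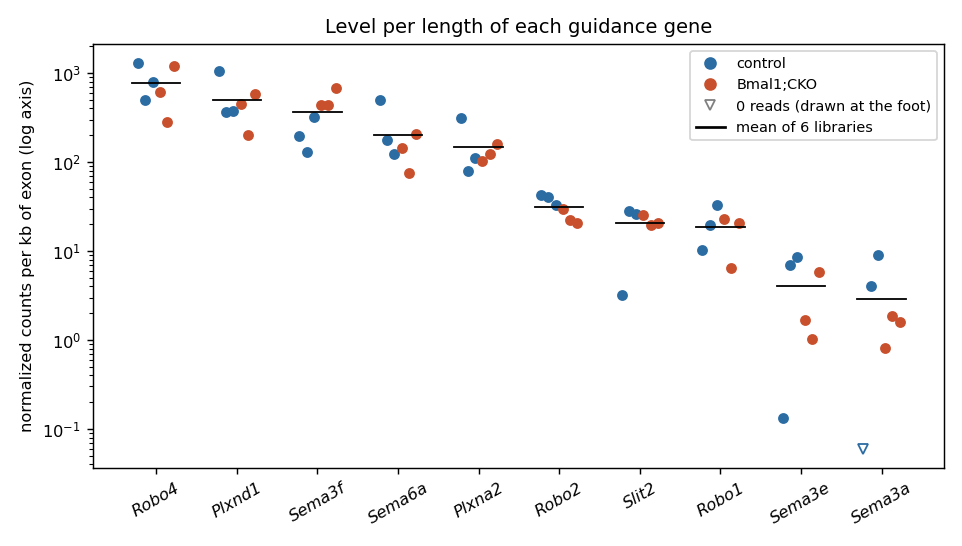
Level of each guidance gene in normalized counts per kb of exon, on a log axis, with 1 point per library, control in blue and Bmal1;CKO in red, and a bar for the mean of the 6 libraries. A gap separates Plxna2, at 79.6 or more, from Robo2, at 43.0 or less, and the open triangle marks the 0 reads of Sema3a in control library 1.

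The groups were compared with limma-trend, a linear model over all genes, on log2(normalized count + 1) of the 20459 genes that reached 10 reads in 3 or more libraries. All 10 guidance genes passed that filter. None of them reached an adjusted p under 0.05 (background 0.00% of tested genes), and neither edgeR, DESeq2 (background 0.327%) nor limma-voom called any of the 10. At an unadjusted p under 0.05 there was 1 of 10, Sema3f, where the background was 4.92%, or 3.17% for higher and 1.75% for lower values in Bmal1;CKO. Sema3f was also the 1 gene of the 10 at that threshold with edgeR under TMM scaling (background 3.80%) and with DESeq2 (background 5.92%). The groups did not overlap in 2 of 10, Sema3f with higher and Robo2 with lower values in Bmal1;CKO, where 11.2% of tested genes had groups that do not overlap, 6.62% with higher and 4.54% with lower values. The log2 fold change was below 0 in 7 of 10, with a median of -0.26, against 43.4% of tested genes and a median of 0.11. It was below 0 in 8 of 10 with edgeR and DESeq2, where 47.9% to 48.0% of tested genes were above 0, and in 8 of 10 with limma-voom, where 56.9% were. The count was 5 of 10 without control library 3 (57.0% of tested genes above 0) and 5 of 10 without Bmal1;CKO library 5 (55.7% above 0), where the median of the 10 was 0.032.

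**Figure D2:**
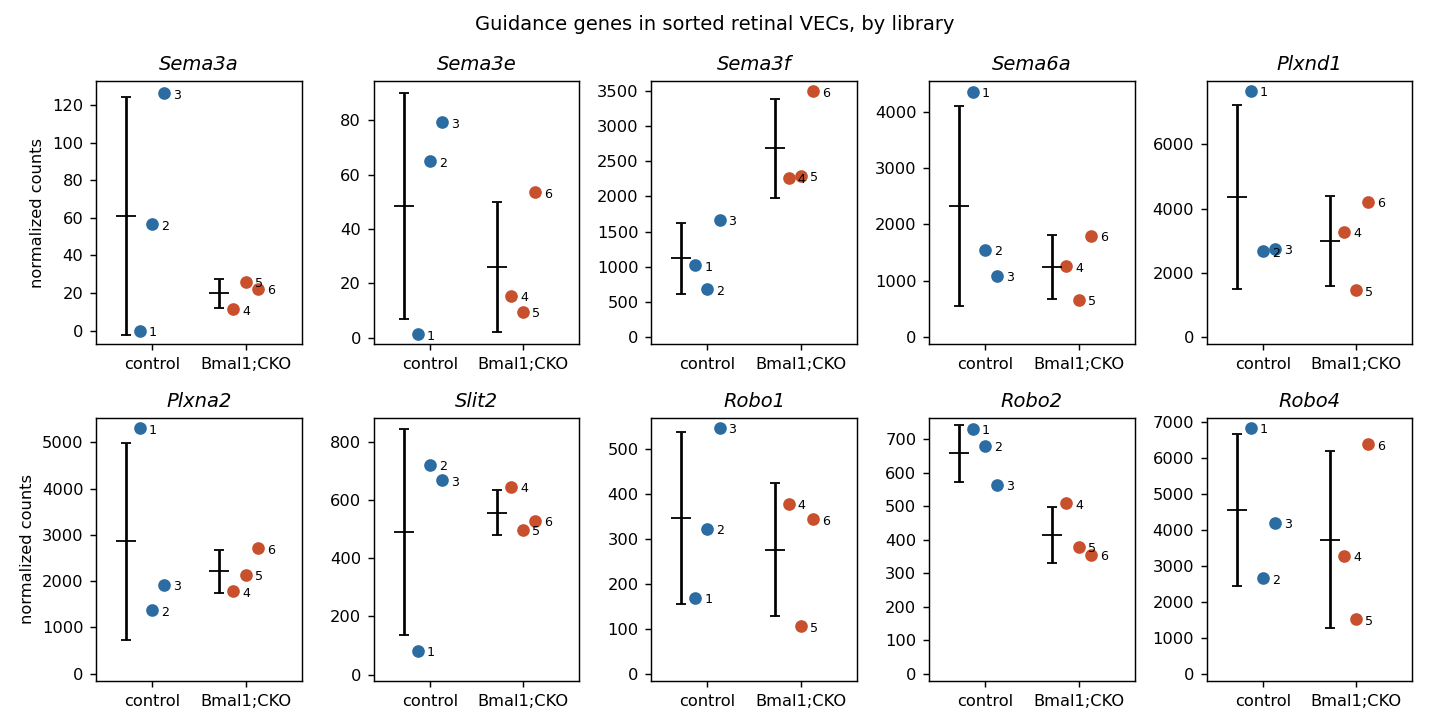
Normalized counts of the 10 guidance genes by library, numbered 1 to 3 for control (blue) and 4 to 6 for Bmal1;CKO (red), with the group mean and SD (n = 3) as black bars. Only Sema3f and Robo2 show 2 groups that do not overlap, and control library 1 is the highest for Sema6a, Plxnd1, Plxna2, Robo2 and Robo4 and the lowest for Sema3a, Sema3e and Slit2.

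Sema3f (ENSMUSG00000034684, reverse strand of chromosome 9 of GRCm38, 107681500 to 107710475) encodes a secreted semaphorin that signals mainly through Nrp2 and is known to repel endothelial cells. It had 1021, 675 and 1668 normalized counts in control and 2267, 2298 and 3501 in Bmal1;CKO. Every Bmal1;CKO library was above every control library, with the smallest gap between control library 3 and library 4. The means were 1121 ± 504 and 2689 ± 704 (SD, n = 3 each), a ratio of 2.40. By limma-trend the log2 fold change was 1.33 (standard error 0.41, unadjusted p = 0.0124, adjusted p = 0.883). Its size held between 1.01 and 1.66 with 1 library left out, and without Bmal1;CKO library 6 the unadjusted p was 0.0554. DESeq2 gave 1.26 and the lowest adjusted p of the count-based tests, 0.398. Marker lists with mostly log2 fold changes above 0 were those of Müller glia (7 of 7 tested, median 0.48), microglia (8 of 9, 0.40), cones (7 of 8, 0.64), astrocytes (4 of 5, 0.58), amacrine cells (6 of 8, 0.57), horizontal cells (3 of 4, 1.18) and pericytes (5 of 8, 0.88), against 56.6% of all tested genes. Aqp4 of Müller glia was at 0 reads in 4 libraries. Each pericyte marker had a lower mean in Bmal1;CKO, and those with log2 fold changes above 0 had 0 to 10 reads in control library 1. Kcnj8 had means of 5979 in control and 1961 in Bmal1;CKO, with a log2 fold change of 1.16. Some markers of other lists did the same, such as Calb1 (293 and 226, 1.93) and Gad1 (1063 and 699, 2.16). The part of the cells of these lists in the Sema3f difference was not tested.

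Sema3a and Sema3e are neighbours on chromosome 5, with 423 kb between them. Sema3a (ENSMUSG00000028883, forward strand, 13125414 to 13602565) encodes the ligand of Nrp1 with A-type plexins, a cue that collapses growth cones and repels vessels. It had 0, 61 and 177 reads in control and 8, 30 and 27 in Bmal1;CKO, or 0, 56.6 and 126 against 11.3, 25.9 and 22.2 normalized counts. The 0 of control library 1 allows up to 3.69 normalized counts. Control libraries 2 and 3 were the highest of the 6 and control library 1 the lowest, so the groups overlapped. The fitted log2 fold change of 0.021 (standard error 1.86, adjusted p = 0.999 by limma-trend) turned to -2.12 without control library 1 and to -0.63 with a pseudocount of 10.

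Sema3e (ENSMUSG00000063531, forward strand, 14025276 to 14256689), the ligand of Plxnd1, had 1, 70 and 111 reads in control and 11, 11 and 65 in Bmal1;CKO. In normalized counts these were 1.23, 65.0 and 79.3 against 15.5, 9.50 and 53.5. As for Sema3a, control library 1 was the lowest and control libraries 2 and 3 were the highest. The log2 fold change of -0.11 (standard error 1.63, adjusted p = 0.992 by limma-trend) was -1.78 without control library 1 and 0.80 without control library 3. The 8 ganglion cell markers, which mark the neurons that release these cues, summed to 7094 in control library 1. They summed to 16034 and 17446 in control libraries 2 and 3, and to 8061 to 15787 in Bmal1;CKO. Control library 1 was also the lowest for the amacrine, horizontal and bipolar cell, cone, Müller glia and pericyte sums. It was not the lowest for the endothelial, microglial, astrocyte and rod sums. The part of these lists in the Sema3a and Sema3e values was not tested.

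Sema6a (ENSMUSG00000019647, chromosome 18) encodes a transmembrane semaphorin that binds Plxna2 and Plxna4. It had 4362, 1544 and 1087 normalized counts in control and 1256, 656 and 1797 in Bmal1;CKO. Control library 1 was far above the rest, and the other 5 libraries were mixed. The means were 2331 ± 1773 and 1237 ± 571 (SD, n = 3 each). The groups differed by a log2 fold change of -0.77 (limma-trend, standard error 0.60, adjusted p = 0.883), and by -0.18 without control library 1.

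Plxnd1 (ENSMUSG00000030123, reverse strand of chromosome 6, 115954811 to 115995005) encodes the endothelial plexin that reads Sema3e. It had 7667, 2668 and 2742 normalized counts in control and 3270.0, 1454.5 and 4213 in Bmal1;CKO. Control library 1 was again the highest and Bmal1;CKO library 5 the lowest, a 5.27-fold range. The means were 4359 ± 2865 and 2979 ± 1402 (SD, n = 3 each), and limma-trend gave a log2 fold change of -0.49 (standard error 0.54, adjusted p = 0.887). Without control library 1 it was 0.0061.

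Plxna2 (ENSMUSG00000026640, forward strand of chromosome 1, 194618218 to 194816869) encodes a receptor for Sema6a that also serves class 3 semaphorins with neuropilins. It had 5302, 1368 and 1921 normalized counts in control and 1781, 2133 and 2709 in Bmal1;CKO. The Bmal1;CKO libraries lay close together, within the span of the control libraries. Limma-trend gave a log2 fold change of -0.15 (standard error 0.51, adjusted p = 0.960), which was 0.42 without control library 1.

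Slit2 (ENSMUSG00000031558, forward strand of chromosome 5, 47983138 to 48307733) encodes the secreted ligand of Robo1 and Robo2. It had 81.2, 721 and 668 normalized counts in control and 646, 498 and 529 in Bmal1;CKO. Control library 1 was alone at the low end, and the other 5 libraries were within 498 to 721. The log2 fold change of 0.70 (standard error 0.86, adjusted p = 0.895 by limma-trend) became -0.33 without control library 1. The 8 amacrine markers summed to 3226 normalized counts in that library and to 5848 to 14948 in the others. That library was also the lowest for the ganglion, horizontal and bipolar cell, cone, Müller glia and pericyte sums. It was not the lowest for the endothelial, microglial, astrocyte and rod sums. The part of any of these lists in the Slit2 value was not tested.

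Robo1 (ENSMUSG00000022883, forward strand, 72308306 to 73046095) and Robo2 (ENSMUSG00000052516, reverse strand, 73891839 to 74411825), the SLIT receptors of axons and of sprouting vessels, are neighbours on chromosome 16 with 846 kb between them. Robo2 had 731, 680.2 and 564 normalized counts in control and 509, 379 and 354 in Bmal1;CKO. All 3 Bmal1;CKO libraries were below all 3 control libraries. The means were 659 ± 85.3 and 414 ± 83.2 (SD, n = 3 each), and limma-trend gave a log2 fold change of -0.68 (standard error 0.42, unadjusted p = 0.150, adjusted p = 0.883). It lay between -0.84 and -0.57 with 1 library left out. Robo2 had the narrowest range of the 10 genes, 2.06-fold from its lowest to its highest library. Lists with mostly lower values in Bmal1;CKO were the endothelial (14 of 14, median log2 fold change -0.50), rod (9 of 10, -0.26) and bipolar cell markers (7 of 8, -0.81), and their part in the Robo2 difference was not tested. Of the 3 Robo2 start regions, only 1 holds the E-box. That start lies outside the gene model, and its part in the Robo2 difference was not tested.

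Robo1 was more uneven, with 169, 322 and 547 normalized counts in control and 377, 105 and 343 in Bmal1;CKO. The groups overlapped, with Bmal1;CKO library 5 at the bottom. Its difference was -0.37 on the log2 scale (limma-trend, standard error 0.75, adjusted p = 0.927), and it turned to 0.036 without control library 3 and to 0.21 without Bmal1;CKO library 5. The part of the pericyte markers of control library 3 in the Robo1 and Sema3e values was not tested.

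Robo4 (ENSMUSG00000032125, forward strand of chromosome 9, 37401897 to 37415115) encodes the ROBO receptor of endothelium, known for keeping vessels stable. It had 6837, 2649 and 4193 normalized counts in control and 3270.0, 1512 and 6378 in Bmal1;CKO. Each group held a high library, control library 1 and Bmal1;CKO library 6, and the groups overlapped throughout. The means were 4559.8 ± 2118 and 3719.8 ± 2464 (SD, n = 3 each). The log2 fold change of -0.42 (standard error 0.57, adjusted p = 0.899 by limma-trend) was 0.11 without Bmal1;CKO library 5.

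Several of these genes moved from library to library with the endothelial markers. The mean log2 level of the 14 markers was 13.7, 12.9 and 12.7 in control and 12.6, 11.8 and 13.1 in Bmal1;CKO, a difference of -0.55 (two-sided exact permutation test, p = 0.4, where 3 against 3 can reach no p below 0.1). The difference of Plxnd1 from that mean spanned 0.71 on the log2 scale over the 6 libraries, against 2.40 for Plxnd1 alone. For Sema6a the spans were 0.98 and 2.73, and for Robo4 1.04 and 2.18. Relative to the markers these 3 genes were thus steadier than in normalized counts. Slit2 was the opposite, with a span of 4.43 against 3.13 alone, and Sema3f had 3.00 against 2.37.

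When every library was scaled to its endothelial marker mean, the median change over all tested genes moved on the log2 scale from 0.11 to 0.65 and 84.2% of them were above 0. On that scale 8 of the 10 guidance genes were above 0, and 0 had an adjusted p under 0.05 (background 0.00489%), with Sema3f alone at an unadjusted p under 0.05 (background 4.26%). The log2 fold changes of Plxnd1, Robo4 and Robo2 were 0.054, 0.13 and -0.13 there, below the shift of all genes. Sema3f was at 1.88 (standard error 0.65, adjusted p = 0.793 by limma-trend), above that shift. Relative to the markers its 3 Bmal1;CKO libraries were still the highest 3 (exact permutation p = 0.1, two-sided), whereas for Robo2 the groups overlapped (exact permutation p = 0.8).

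**Figure D3:**
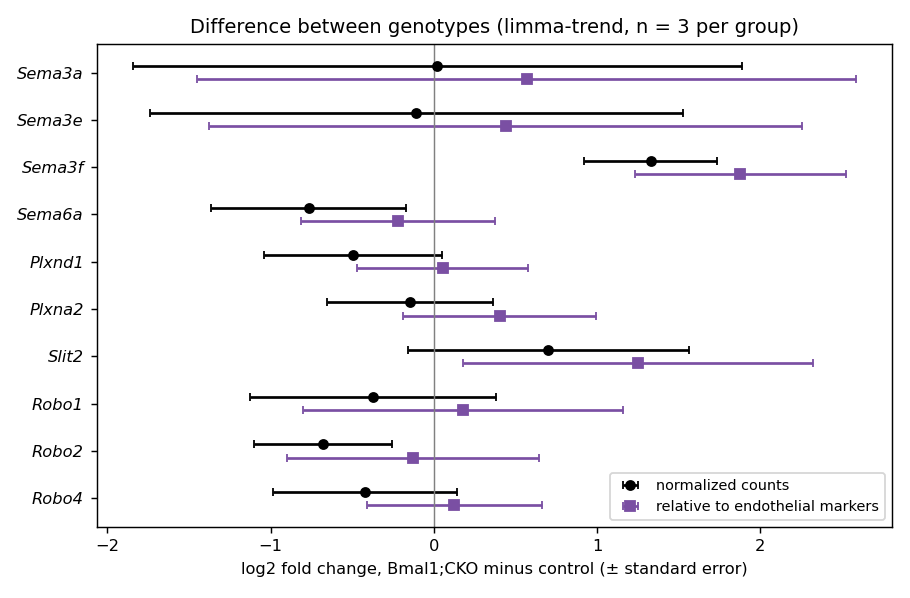
Log2 fold change of each guidance gene, Bmal1;CKO minus control, with its standard error (n = 3 per group), from normalized counts (black circles) and after scaling each library to the endothelial markers (purple squares). Sema3f is at 1.33 and 1.88, while the points of Plxnd1 and Robo4 move from below 0 to 0.054 and 0.13.

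**Figure D4:**
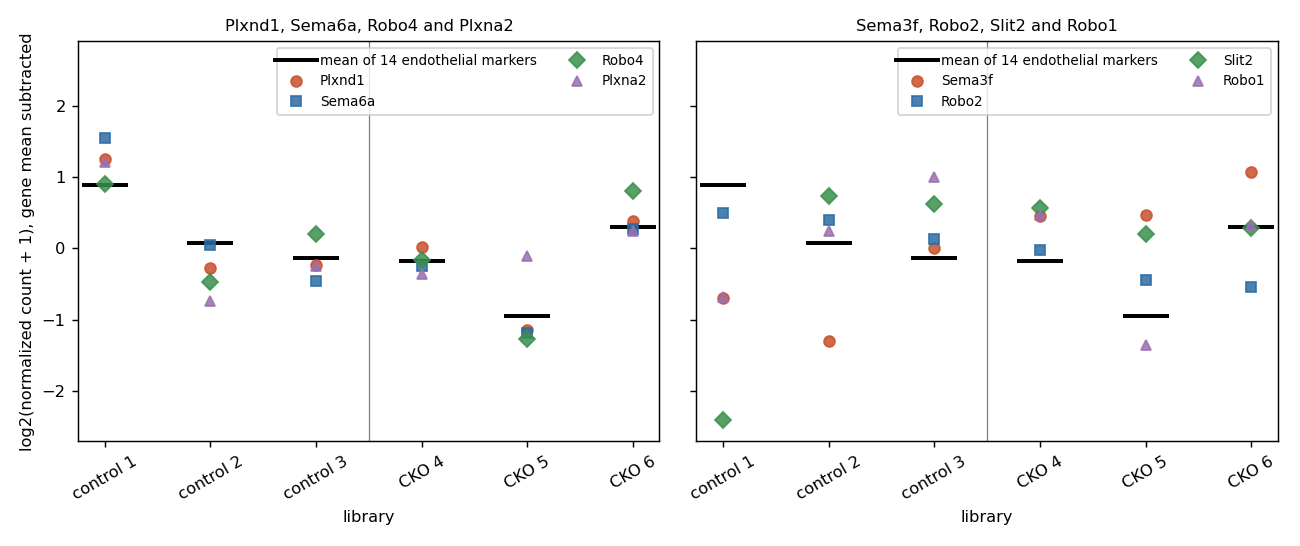
Log2(normalized count + 1) of 8 guidance genes in each library after subtracting the gene's own mean, with the mean of the 14 endothelial markers treated alike as a black bar. Plxnd1, Sema6a and Robo4 sit near the bars, high in control library 1 and low in Bmal1;CKO library 5, and Sema3f and Slit2 do not.

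The 8 guidance genes that reached 10 reads in each library were set beside 15045 genes that did so too, by the mean absolute difference between centred log2 values over the 6 libraries. The nearest were Coq2 (0.069) and Gm10156 (0.079) for Robo2, Rflnb (0.070) and Cd93 (0.12) for Sema6a, and Ints3 (0.080) and Fblim1 (0.10) for Plxna2. For Slit2 they were Opn1sw (0.099), the short-wave cone opsin, and 6330403K07Rik (0.11), and Spock2 (0.12) was among the nearest of Plxnd1. Robo4 was nearest to Ephb4 (0.14), the venous ephrin receptor, and Grk5 (0.14), Sema3f to Kcnk6 (0.14) and Il10ra (0.16), and Robo1 to Gng7 (0.20) and C1qtnf6 (0.21). Within the group the nearest pair was Sema6a and Plxnd1 (0.21), close to the distance of Plxnd1 from the endothelial marker mean (0.21). With 6 libraries many genes share a profile, so these distances describe the libraries only.

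The rest of the pathway was followed in 51 further genes, of which 48 passed the filter on reads. None had an adjusted p under 0.05 by limma-trend, and 3 had an unadjusted p under 0.05, Sema4a with higher and Mical2 and Dpysl2 with lower values in Bmal1;CKO, against 4.92% of all tested genes. The groups did not overlap in 7 of 48, 4 higher and 3 lower in Bmal1;CKO, where the background was 11.2%, or 6.62% higher and 4.54% lower. Log2 fold changes were above 0 in 36 of 48, with a median of 0.38, against 56.6% of tested genes and a median of 0.11, and in 30 of 48, with a median of 0.17, without control library 1, where 50.1% of tested genes were above 0 with a median of 0.0016. The genes named next are described by their values and were not set apart from that background.

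Among the other semaphorins, 12 of 14 tested were above 0 (background 56.6%). The count was 11 of 14 with edgeR (background 47.9%) and 9 of 14 without control library 1 (background 50.1%). Sema7a, a membrane-anchored semaphorin that acts on integrins, had 404, 356 and 366 normalized counts in control and 158, 196 and 161 in Bmal1;CKO. Both groups were narrow and apart, with a log2 fold change of -1.13 (standard error 0.53, adjusted p = 0.883 by limma-trend). Sema6c, a transmembrane semaphorin, had 310.1, 271 and 357 against 775, 385 and 728, also apart (0.95, standard error 0.49). Sema4a had 28.3, 87.2 and 939 against 1281, 663 and 995, and control library 3 lay among the Bmal1;CKO libraries. Sema3d was under the filter, with 0, 0 and 1 reads in control and 27, 26 and 5 in Bmal1;CKO, and Sema3c had 1, 0 and 0 against 30, 1 and 14. Sema3g, a semaphorin of arterial endothelium, had means of 370.1 ± 110 and 375 ± 10.1 (SD, n = 3 each), and Sema6d had 1099 ± 523 and 661 ± 445.

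The co-receptors and other plexins gave 7 of 9 above 0 (background 56.6%), with no gene whose groups were apart. The count was 6 of 9 with edgeR under TMM scaling (background 47.9%). Without control library 2 it was 4 of 9, with a median of -0.057 (background 55.1%). Nrp1, the co-receptor of Sema3a and of VEGF, had means of 9983 ± 4898 and 7087 ± 1593 normalized counts (SD, n = 3 each). Nrp2, the co-receptor of Sema3f, had 1768 ± 903 and 1605 ± 71.2, a log2 fold change of 0.038 (standard error 0.48). Plxnb2, a plexin of class 4 semaphorins, had 9663 ± 7082 and 11782 ± 1132, and Plxna1 and Plxnb1 had log2 fold changes of 0.47 and 0.30. Robo3, a divergent ROBO of commissural axons, had 169, 708 and 859 normalized counts in control and 977, 1332 and 1040.4 in Bmal1;CKO, with the groups apart (1.24, standard error 0.65). Slit3 did not pass the filter, with at most 55 reads in a library.

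Of the 23 cytoplasmic effectors, 15 were above 0 (background 56.6%) and 4 had groups that do not overlap (background 11.2%). With edgeR under TMM scaling 13 were above 0 (background 47.9%), and 13 without control library 1 (background 50.1%). Dpysl2, which encodes the CRMP2 protein that carries the Sema3a signal to microtubules, had 6299.6, 6419.7 and 6255 normalized counts in control and, in Bmal1;CKO, 2999, 3743 and 5159. Its control libraries were nearly equal and all Bmal1;CKO libraries were lower (-0.71, standard error 0.27). Mical2, an actin-oxidizing enzyme of the family that acts under plexins, had 466, 255 and 185 against 42.2, 149 and 29.7 (-2.27, standard error 0.88). Dpysl4, of the same family as Dpysl2, and Rnd1, a small GTPase that binds plexins, were apart in the other direction, with log2 fold changes of 0.65 and 1.03. The adjusted p by limma-trend was 0.883 for each of these 4. Srgap1, a GTPase-activating protein under ROBO, had a log2 fold change of -0.12.

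**Figure D5:**
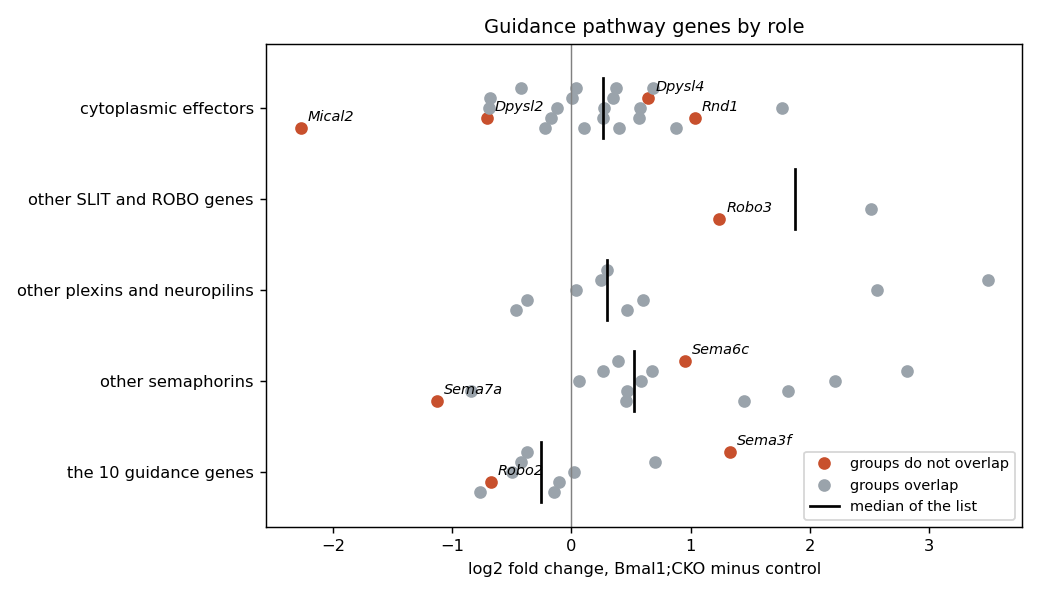
Log2 fold change, Bmal1;CKO minus control, of the 10 guidance genes and of 48 other tested pathway genes by role, with 1 point per gene and a bar at the median of each list. Named red points are genes whose groups do not overlap, 2 of the 10 guidance genes and 7 of the other 48.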

How the data were processed

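Poly-A RNA from FACS-sorted VECs (3 control and 3 Bmal1;CKO libraries) was amplified (Smart v4) and made into Nextera XT libraries. Per the labels and the paper's methods, the authors used FastQC, Trimmomatic, Bowtie to mm10 (GRCm38), featureCounts and DESeq2. Versions of these tools and the use of strand are not given in the sources used here. The authors deposited a signal per gene and library, the read count divided by the size factor of the library, together with their own fold changes, standard errors and p-values, which were not used. Column names give the genotype, and since their numbering is not that of the samples, each column was a replicate of its group. The methods give 3 animals of each genotype and speak of biological replicates, so p-values measure the spread between these libraries.

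Each column was divided by its smallest value above 0, which gave whole reads for 100% of values (tolerance 0.01). Genes that reached 10 reads in 3 or more libraries were tested with limma-trend (limma 3.58.1, R 4.3.3) on log2(value + 1), genotype only, with Benjamini-Hochberg adjustment over all tested genes. The pseudocount shrinks differences between low values. With 1 library near 0, a fold change on this scale can exceed the ratio of the group means or have the opposite direction. Alternatives were edgeR 4.0.16 on recovered reads with TMM or DESeq2 size factors, DESeq2 1.42.0, limma-voom, pseudocounts of 0.5 and 10, 2 other read filters, scaling to 14 endothelial markers, and leaving out each library. Lengths and coordinates came from GENCODE M21, and no exon of the 10 genes overlaps an exon of another annotated gene. The upper limit given for 0 reads is 3 reads and covers counting error only. Genes named beyond the 10 are listed pathway genes with an unadjusted p under 0.05 or groups that do not overlap, 9 vessel-related family members, and nearest profiles, of which 1 is not reported here. The 10 genes and the lists were chosen with earlier results of these data known.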

Additional observations from a re-analysis of the deposited data

How the results depend on the processing

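Under every alternative run, 0 of the guidance genes and 0 of the other pathway genes that were tested had an adjusted p under 0.05. All 10 guidance genes were tested in each, except that the filter of 10 reads in every library left 8 of them, without Sema3a and Sema3e, and 42 of the other pathway genes. Over all genes the count of 0 became 67 with DESeq2, 1 with either other read filter, 1 after scaling to the endothelial markers, and 0 to 6 with 1 library left out, the 6 without control library 1. Of the guidance genes, 1 had an unadjusted p under 0.05 in each other setting and 0 to 1 with 1 library left out, the 0 without Bmal1;CKO library 6. Of the other pathway genes, 3 did, against 1 with edgeR under either scaling and 5 with DESeq2. With 1 library left out, their count ran from 0 to 6. It was 6 without control library 3, 0 without Bmal1;CKO library 4 and 1 without library 5 or 6. Over all 20459 tested genes, the count at that threshold was 1007 with limma-trend. It was 777 with edgeR under TMM scaling, 1211 with DESeq2, and 2444 without control library 3. Without Bmal1;CKO libraries 4, 5 and 6 in turn, it was 472, 444 and 686.

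Sema3f, Robo2 and Sema6a kept the sign of their log2 fold change under every alternative run. Sema3a turned from 0.021 to -1.62 with edgeR under TMM, -1.62 under the size factors, -1.62 with DESeq2, -0.036 with limma-voom and -0.63 with a pseudocount of 10, and ran from -2.12 to 1.38 with 1 library left out. After scaling to the endothelial markers, Sema3e turned to 0.44, Plxnd1 to 0.054, Plxna2 to 0.40, Robo1 to 0.18 and Robo4 to 0.13, as the scaling raises all genes. With 1 library left out, Sema3e ran from -1.78 to 0.80, Plxnd1 from -0.81 to 0.0061, Plxna2 from -0.55 to 0.42, Slit2 from -0.33 to 1.24, Robo1 from -0.81 to 0.21 and Robo4 from -0.93 to 0.11. The cause of these turns beyond the scaling was not tested. No paired analysis was possible because the column numbers run from 1 to 6 and do not carry the replicate numbers of the labels. The reads behind Sema3a and Sema3e, 0 to 177 per library, limit what can be said of them.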
